A study of Mus musculus with 30 samples.

Results

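Processed pseudogenes are DNA copies of spliced messenger RNAs that were written back into the genome, and 72 of them reached a mean of at least 10 CPM (counts scaled to the summed gene counts of a library) over 23 single mouse embryos of the Dis3 study. The members were chosen by that measured mean and by their GENCODE vM21 biotype, so their level is a description. They were 72 of 10233 processed pseudogenes and of 55487 genes in the count tables. Of the 72, 53 carried the biotype processed pseudogene and 19 transcribed processed pseudogene. Another 6533 processed pseudogenes had a count but stayed below the threshold, and 3628 had none in any embryo. Gm49309 at 10.1 CPM and Gm6368 at 10.0 CPM lay just inside the threshold, and Gm16580 at 9.93 CPM and Gm15427 at 9.89 CPM just outside it.

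Embryos were collected one by one on embryonic days 2.5 (E2.5) or 2.75 (E2.75) from matings between mice carrying 1 Dis3 null allele, so each embryo developed from an egg of a heterozygous dam treated with hormones. The null allele lacks exons 3 to 5 of Dis3, which encodes a ribonuclease of the nuclear RNA exosome, and was made with Cas9 in zygotes of B6D2F1 mice. Genotyping of the residual DNA gave 6 wild-type, 2 heterozygous (het) and 4 homozygous null embryos for E2.5. For E2.75 it gave 3 of the wild-type, 5 of the het and 3 of the null genotype. The comparisons ask which transcripts change when the ribonuclease is missing and as the embryo moves from one stage to the next. The 4 peak lists of POU6F1, a POU homeodomain factor, came from mouse embryonic stem cells (mESCs) derived from blastocysts with a floxed Dis3 gene, which carried pou6f1-mCherry or mCherry alone on a CAG promoter. Nothing in the labels says which embryos shared a litter or a knockout line, so p-values measure the spread between these embryos.

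A retrocopy starts without the promoter and introns of its parent gene, and most copies decay through mutations that break the reading frame. Some are transcribed from a promoter nearby, and a few keep an intact frame. In a short-read experiment the sequence shared with the parent limits which reads can be given to the copy. Abundant messages of the oocyte and early embryo, those of ribosomal proteins among them, are frequent sources of such copies.

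For each member the parent was taken as the protein-coding gene whose annotated transcript aligned best to the exons of the member. A parent was found for 69 of 72 members and 59 genes served as parents. All 69 members matched the sense strand of the parent transcript. Identity ran from 77.2% to 100%, with a median of 96.7%. It was at least 99% in 21 members, from 95% to under 99% in 19, from 90% to under 95% in 13 and lower in 16. A reading frame of at least 90% of the parent's coding length was left in 27 of 69 members, and 31 kept under 50%. Of the 72, 56 were a single block of exon sequence, 49 lay between genes, 11 in an intron on the opposite strand, 5 in an intron on the same strand, and 7 overlapped an exon of another gene. A run of at least 10 A bases, from 50 bases before to 100 bases after the annotated end, was found for 14 members (19.4%) and for 834 of 10161 processed pseudogenes below the threshold (8.21%), whose median exon length of 536 bases was shorter than the members' 954.5 bases.

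The differences from the parent are shown for 4 members, the called ones of the null against het comparison and 2 of the most abundant ones. Each line holds the 60 aligned coding bases with the most differences, read from GRCm38 or from the annotated parent transcript, with the differing bases in capitals. Tcea1-ps1, at chr15:90883226-90883285 on the plus strand, differs from Tcea1 at 3 bases of its window.
Tcea1-ps1: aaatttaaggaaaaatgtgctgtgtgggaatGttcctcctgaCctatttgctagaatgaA
Tcea1: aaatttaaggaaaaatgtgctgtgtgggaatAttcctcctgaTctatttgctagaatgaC
Gm15455, at chr1:33837221-33837280 on the minus strand, differs from Rbm10 at 5 bases.
Gm15455: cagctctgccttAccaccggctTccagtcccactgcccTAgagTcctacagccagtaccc
Rbm10: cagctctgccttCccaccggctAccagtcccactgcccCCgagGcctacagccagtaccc
Gm5612, at chr9:18427700-18427759 on the plus strand, differs from Map1lc3b at 6 bases.
Gm5612: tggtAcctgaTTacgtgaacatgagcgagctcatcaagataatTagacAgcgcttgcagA
Map1lc3b: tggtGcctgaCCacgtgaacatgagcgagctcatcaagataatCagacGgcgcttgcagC
Rps4l, at chr6:148355184-148355243 on the plus strand, differs from Rps4x at 20 bases.
Rps4l: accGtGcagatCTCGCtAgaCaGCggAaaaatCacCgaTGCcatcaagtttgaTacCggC
Rps4x: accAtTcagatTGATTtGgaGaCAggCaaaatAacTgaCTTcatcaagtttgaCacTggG
In contrast to these, 4 members are identical to the parent transcript over the whole alignment.

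How much of a member is its own was measured as the share of its 50-base windows that occur nowhere else in the genome or in an annotated transcript. The median was 53.3%. At least 50% of the windows were unique in 38 of 72 members, at least 90% in 13, under 10% in 7 and under 1% in 4. The last 4, Rps16-ps2, Gm15500, Gm10275 and Gm13835, are the copies at 100% identity, and they were named after their values were seen. At that window length their counts of 15.1 to 48.7 CPM cannot be told apart from reads of Rps16, Rpl5, Rpl12 and Psma3.

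**Figure D1:**
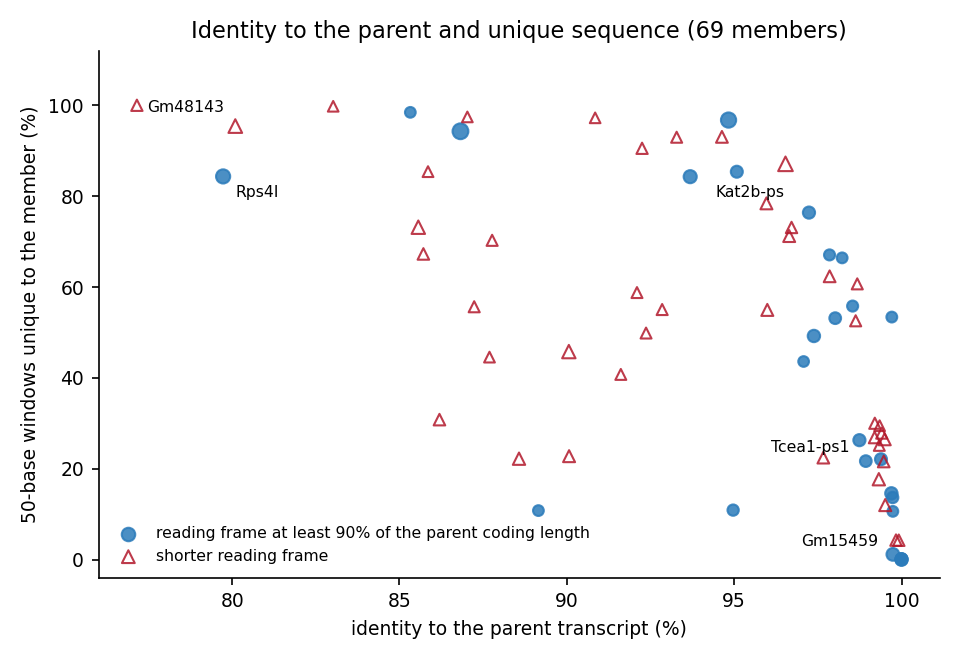
Identity of 69 members to the parent transcript in percent (x axis) against the share of 50-base windows unique to the member in percent (y axis), with larger points for higher mean CPM; filled circles keep a reading frame of at least 90% of the parent coding length and open triangles a shorter one. Members above 99% identity lie at the lower right, where Gm15459 has 1.16% unique windows, while Gm48143 at 77.2% identity has 100%.

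Expression was concentrated in a few members. The members together took 0.375% to 0.816% of the gene counts of an embryo. The 2 most abundant members held 49.6% of the members' summed mean CPM and the 5 most abundant held 65.9%, while the median member had 21.1 CPM. Aside from those 2, copies of cytosolic ribosomal protein genes (20 members) held 14.4% of the summed CPM of all 72. Copies of translation factors (4 members) held 2.30%, copies of protein folding and turnover genes (6, of which Gm19174 enters only through the symbol of its parent Ubtfl1) 2.62%, and copies of chromatin and nuclear protein genes (3) 1.41%. The 31 members of other parents held 26.2%. A mean of at least 10 CPM was reached in wild-type embryos by 64 members, in het embryos by 60, in null embryos by 65 and in each genotype by 52, and 60 members had a count in every embryo.

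**Figure D2:**
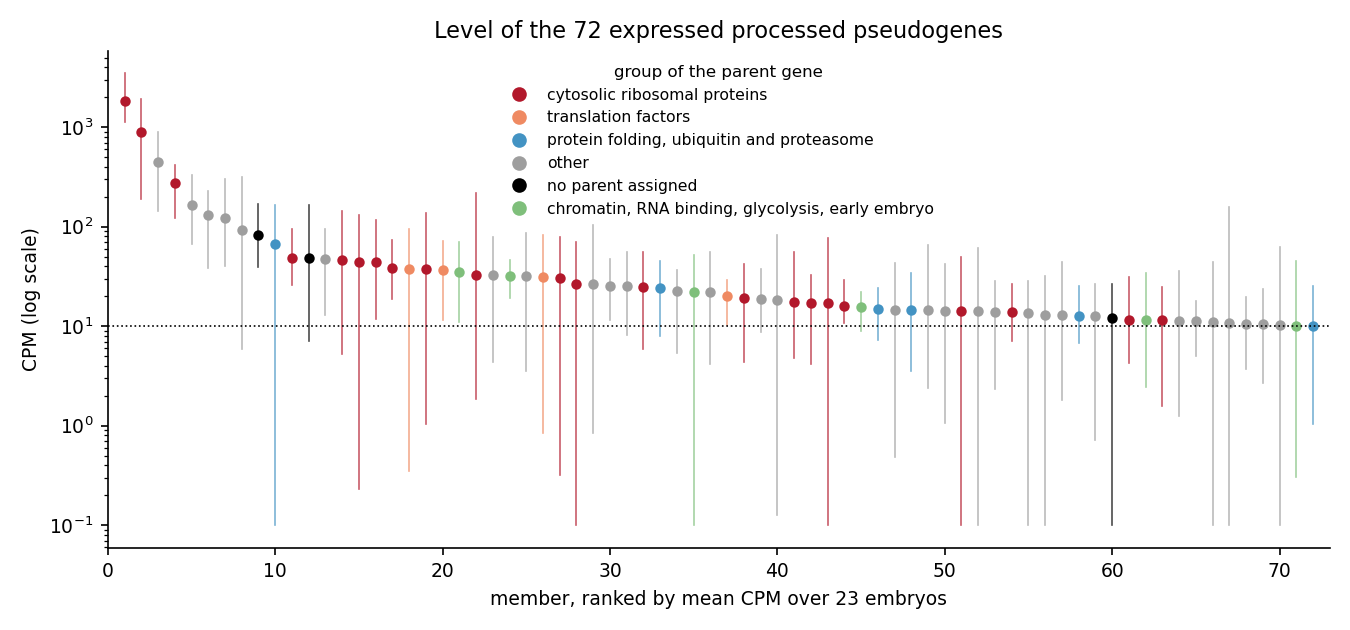
Mean CPM of the 72 members over 23 embryos (points, log scale on the y axis) ranked along the x axis and coloured by the group of the parent gene, with lines from the lowest to the highest embryo; CPM under 0.1 is drawn at 0.1 and the dotted line marks 10 CPM. The ranking falls from 1822 CPM to 10.0 CPM, and Gm12617 and Gm11517 stand at its head.

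Gm12617 (chr11:60692695-60693075, minus strand, between genes) was the most abundant member, with a mean of 1822 CPM. Per kilobase of exon it was at 4783 CPM. Gm11517 (chr11:96795439-96795825, minus strand, in an intron of Cbx1 that runs the other way) came next with 889 CPM, or 2298 CPM per kilobase. Their sequence was largely their own, with 94.3% unique windows in Gm12617 and 96.7% in Gm11517.

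Gm5612 (chr9:18427543-18427917, plus strand, between genes) had 451 CPM and is a copy of Map1lc3b, which encodes a protein of the autophagosome membrane. Its level of 1203 CPM per kilobase compared with 138 CPM per kilobase for Map1lc3b over the union of the parent's exons, the length used for every gene here, and with 410.3 over the aligned transcript alone. Its longest frame was only 11.2% of the parent's. Rps4l (chr6:148354656-148355598, plus strand, in an intron of Tmtc1 on the other strand) had 273 CPM. It kept 99.6% of the frame length of Rps4x, the X-linked gene of a small ribosomal subunit protein, at 79.7% identity, and reached 290 CPM per kilobase against 148 CPM for Rps4x, or 247 over its aligned transcript. Rps4l ranged from 131 to 410 over all embryos, with 191 to 342 normalised CPM in the 6 wild-type embryos of E2.5 (median 302) and 190, 189 and 212 in those of E2.75.

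The next members in rank had other kinds of parents. Gm3333 (chr13:62263566-62275253) at 125 CPM per kilobase and Gm7240 (chr13:61804257-61861675) at 50.2 CPM per kilobase matched the zinc-finger genes Zfp950 and Zfp808, which were at 9.01 and 4.02 CPM per kilobase, or 37.2 and 7.39 over the aligned transcript. Zinc-finger proteins of this kind bind DNA, and their genes lie in clusters of close relatives. Gm3333 has 4 exon blocks and Gm7240 has 5, unlike a simple retrocopy. After the values were seen, 8 members with parents of this kind were counted, and all 8 lie on chromosome 13. The parent Zc3h11a, a zinc-finger gene of another kind, was not counted. Chromosome 13 holds 9 members in all (12.5%) and 5.53% of all processed pseudogenes. 2210409E12Rik (chr11:88972657-88973002) at 353 CPM per kilobase overlaps an exon of Coil on the same strand. Reads that lie wholly in exons of 2 genes are set aside as ambiguous in the counting mode used, 1.89% to 2.73% of the reads of a library without the spike-ins, so the counts of such members come from the rest of their sequence. Gm5435 (chr12:82495388-82496537), a copy of the general transcription factor gene Gtf2a1 with a frame as long as the parent's, was at 79.7 CPM per kilobase against 25.0 for Gtf2a1.

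Among these members the embryos of 1 group differed widely. Gm3333 was at 95.3 to 319 normalised CPM in wild-type embryos of E2.5 (median 208) and at 167, 60.5 and 94.8 in those of E2.75, and Gm7240 at 97.3 to 237 (median 178) and at 97.7, 63.9 and 110. 2210409E12Rik, whose parent Elobl is a relative of the elongin B gene, ran from 68.6 to 339 (median 149) and stood at 49.0, 60.9 and 54.2 at E2.75. Gm5435 ran from 63.4 to 343 (median 85.6), and its wild-type embryos of E2.75, at 98.5, 103.3 and 54.6, lay inside or just below that range. In het embryos of E2.75 2210409E12Rik had 196, 275, 35.2, 146 and 100, a wider range than in the wild-type embryos of that stage.

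Of 68 members with a parent above 0, 29 had more CPM per kilobase than the parent and 12 had under 10% of it. With the length of the aligned parent transcript in place of all its exons, a choice made after seeing the data, these were 19 and 19. Some parents were themselves listed at very low levels, with Gapdh, the gene of a glycolytic enzyme used in every cell, at 0 to 20.0 normalised CPM and the ribosomal protein gene Rpl36 at 0 to 6.89, and their copies Gm48106 and Rpl36-ps8 are among the 29. A parent can lack reads that it shares with its copies, and the part of this in the tally was not tested. Gm15459 (chr5:5781615-5783555), a copy of the heat shock gene Hspa8 at 99.7% identity with 1.16% unique windows, was at 34.5 CPM per kilobase against 111 for Hspa8, or 199 over its aligned transcript. 2810025M15Rik (chr1:157412352-157420236), at 58.1 CPM per kilobase, had no parent by the rule and overlaps an exon of Rasal2 on the other strand.

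The libraries held 1690192 to 14015980 gene counts. Null replicates 2 and 1 of E2.75 were the smallest, at 1690192 and 1914128. Reads outside exons made up 32.3% to 43.9% in null embryos and 20.99% to 33.4% in the others, and the part of this in the genotype results was not tested. Dis3 itself was at 0 to 24.8 CPM in null embryos and 33.6 to 58.1 CPM in het embryos. In wild-type embryos it ran from 16.6 to 128 CPM. Replicate 5 of E2.5, at 31.5 CPM, lay below every het embryo. In 1 wild-type embryo of E2.5, replicate 6, it was at 16.6 CPM, inside the null range, and counts of called members are therefore given without that embryo where it enters. Of the 12 markers of the pre-implantation embryo 8 were above 0 in every embryo, with Pou5f1 at 267 normalised CPM or more, Zfp42 at 88.7 or more and Nanog at 1.84 or more, while Sox2 was at 0 in 11 embryos, Cdx2 in 3, Zp3 in 2 and Krt18 in 1. Of the 11 granulosa genes Ptx3, Inha, Inhba and Cyp11a1 were at 0 throughout, Star had a median of 4.85 and a maximum of 24.2, Has2 reached 18.9 in 1 embryo, and the other 5 stayed at or under 2.71. Summed over each list, the 11 granulosa genes reached at most 27.2, the 4 oviduct genes 12.2, the 3 blood genes 5.72 and the 5 genes of the two-cell-like state 544, the last in 1 het embryo of E2.75. With whole embryos, fewer cells of a type and less RNA per cell cannot be told apart.

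From E2.5 to E2.75 in wild-type embryos, 13 of 72 members fell and 3 rose by edgeR's quasi-likelihood test, with calls made below an adjusted p of 0.1 where the log2 fold change was larger than 1 in size, a rule used for every call here. Among all 18677 genes tested, 3.64% fell and 3.74% rose. Many of those genes are below the members in level. Of the 7459 protein-coding genes with a mean of at least 10 CPM, 608 fell and 350 rose. The median log2 fold change was -0.87 over the members, -0.00 over all genes and -0.85 over 58 parent genes, of which 15 fell and 2 rose. Scaled by the ERCC spike-in, the median of all genes moved to 0.89 and that of the members to 0.10, with 3 members (4.17%) called lower and 6 (8.33%) higher, beside 0.316% and 17.2% of all genes. The members' summed share of counts was 0.588% to 0.816% at E2.5 and 0.408% to 0.430% at E2.75. The 12 embryo markers summed to 10542 to 19880 normalised CPM at E2.5 and to 5405 to 5894 at E2.75. Most of that sum was Dppa3, and the 11 others summed to 781 to 2339 and to 1345 to 1724, ranges that overlap. Without wild-type replicate 6 the same 13 and 3 members were called, beside 4.12% and 4.14% of all genes. Without replicate 5 of E2.5, 10 of the 13 and the same 3 were called, beside 2.67% and 2.38%.

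Both of the most abundant members were at lower levels at the later stage in wild-type embryos. Gm11517 was at 1227 to 2425 normalised CPM at E2.5 (median 1725, 6 embryos) and at 282, 242 and 346 at E2.75. Every embryo of the later stage was below every embryo of the earlier one, and the log2 fold change was -2.59 (SE 0.32, edgeR adjusted p = 0.000113). Gm12617 was at 1930 to 3974 at E2.5 (median 2565) and at 1300, 1580 and 1539 at E2.75. It was lower by 0.89 on the log2 scale with an adjusted p of 0.0146 in edgeR, which did not reach the fold threshold.

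The same order of stages appeared outside the wild-type embryos for Gm11517. It stood at 1003 and 1485 in het embryos of E2.5 and at 232, 355, 167, 407 and 310 in those of E2.75. In null embryos it stood at 1114, 1039, 1891 and 1211 at E2.5 and at 600, 324 and 533 at E2.75. All 12 embryos of E2.5 were therefore above all 11 of E2.75, and the same was true of Dppa3-ps. For Gm12617 the stages overlapped outside the wild-type embryos, with log2 ratios of the means of -0.11 in het and -0.30 in null embryos.

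Dppa3-ps (chrX:37625647-37626097, minus strand, in an intron of Rhox3g) is a copy of Dppa3, a maternal-effect gene that protects methylation in the zygote. Its level was 12.7 to 44.1 at E2.5 (median 22.9) and 4.79, 3.56 and 3.85 at E2.75, a log2 fold change of -2.59 (SE 0.66, edgeR adjusted p = 0.0214). All 11 embryos of E2.75 were at 2.32 to 6.93, so it met the 10 CPM rule for members through the embryos of E2.5. Its call therefore leans on how members were chosen. Among 68 members chosen in embryos outside the comparison 12 were called lower, beside 3.64% of all genes. Dppa3 was at 8202 to 17741 (median 12833) and then at 4549, 3681 and 3975, a log2 fold change of -1.65 (SE 0.21). Per kilobase Dppa3 was at 8604 CPM and the copy at 25.6 CPM, with 66.4% of the windows of the copy unique, and the part of Dppa3 reads in its counts was not tested.

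Gm6472 had the lowest log2 fold change of the 72 members in this comparison. This copy of the ribosomal protein gene Rps7 was at 5.36 to 279 at E2.5 (median 9.77) and at 2.396, 3.01 and 1.62 at E2.75. The log2 fold change of -4.83 (SE 1.46, edgeR adjusted p = 0.0535) was called in 5 of 9 fits that left out an embryo, and without E2.5 replicate 5, the embryo at 279, it was -3.36 with an adjusted p of 0.135 in edgeR. Het embryos of E2.75 had 1.75, 93.4, 40.1, 37.6 and 1.79 and null embryos 7.89, 56.9 and 50.1, so low and high embryos stood side by side within those groups.

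The other 10 members called lower had log2 fold changes from -1.26 (Rps16-ps2) to -2.26 (Gm9892). Gm9892, a copy of the translation initiation factor gene Eif2s2, went from 44.7 to 91.3 (median 50.2) to 14.1, 11.3 and 10.1 (edgeR adjusted p = 0.00147). Gm5612, the Map1lc3b copy, went from 566 to 1136 (median 615) to 320, 194 and 190 (log2 fold change -1.58, SE 0.36, edgeR adjusted p = 0.0108). Gm12346, a copy of the heat shock gene Hsp90aa1 with 21.6% unique windows, went from 20.4 to 57.6 (median 42.1) to 7.46, 10.5 and 10.8. For each of these copies the wild-type ranges of the 2 stages did not overlap. By parent group, aside from Gm11517 and Gm12617, 4 of 20 ribosomal protein copies fell and 3 rose, 5 of 31 members of other parents, 1 of 4 translation factor copies, 1 of 6 copies of protein folding and turnover genes and the Dppa3 copy fell, beside 3.64% of all genes lower and 3.74% higher.

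The parents of all 13 lower members had a negative log2 fold change, and for 12 of 13 the parent was itself called lower, the exception being Rpl5 at -0.99. Of all 68 members with a parent level, 58 (85.3%) had a parent with a negative log2 fold change and 18 (26.5%) one that was called lower. For Rps16-ps2 and Gm15500 among the 13, with under 1% unique windows, counts of copy and parent cannot be told apart at that window length. Of the 13, 4 had at least 50% unique windows and 9 had fewer, out of 38 and 34 members. In edgeR fits that left out 1 embryo at a time, 6 of the 13 were called every time, namely Gm11517, Gm5612, Gm15500, Gm9892, Gm12346 and Dppa3-ps. In the 4 other settings (DESeq2, no filter, ERCC scaling and the replicate block) 2 of the 13, Gm11517 and Gm9892, were called every time. ERCC scaling took the call from Gm5612, Gm15500 and Gm12346, with edgeR adjusted p-values of 0.268, 0.380 and 0.246, and Dppa3-ps lost it there and with no filter, at 0.145 and 0.129. The number of members called lower was 6 without E2.75 wild-type replicate 3, 7 without replicate 1 and 8 without replicate 2, beside 2.18%, 2.29% and 2.61% of all genes. In het embryos 11 of the 13 and in null embryos 10 of the 13 had a lower mean at E2.75, as had 44 and 53 of all 72 members and 49.9% and 52.2% of the 7824 genes with a mean of at least 10 CPM. The E2.75 range lay wholly below the E2.5 range for 6 of the 13 in each of these genotypes, for 14 and 18 of all members, and for 13.1% and 10.6% of those genes.

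**Figure D3:**
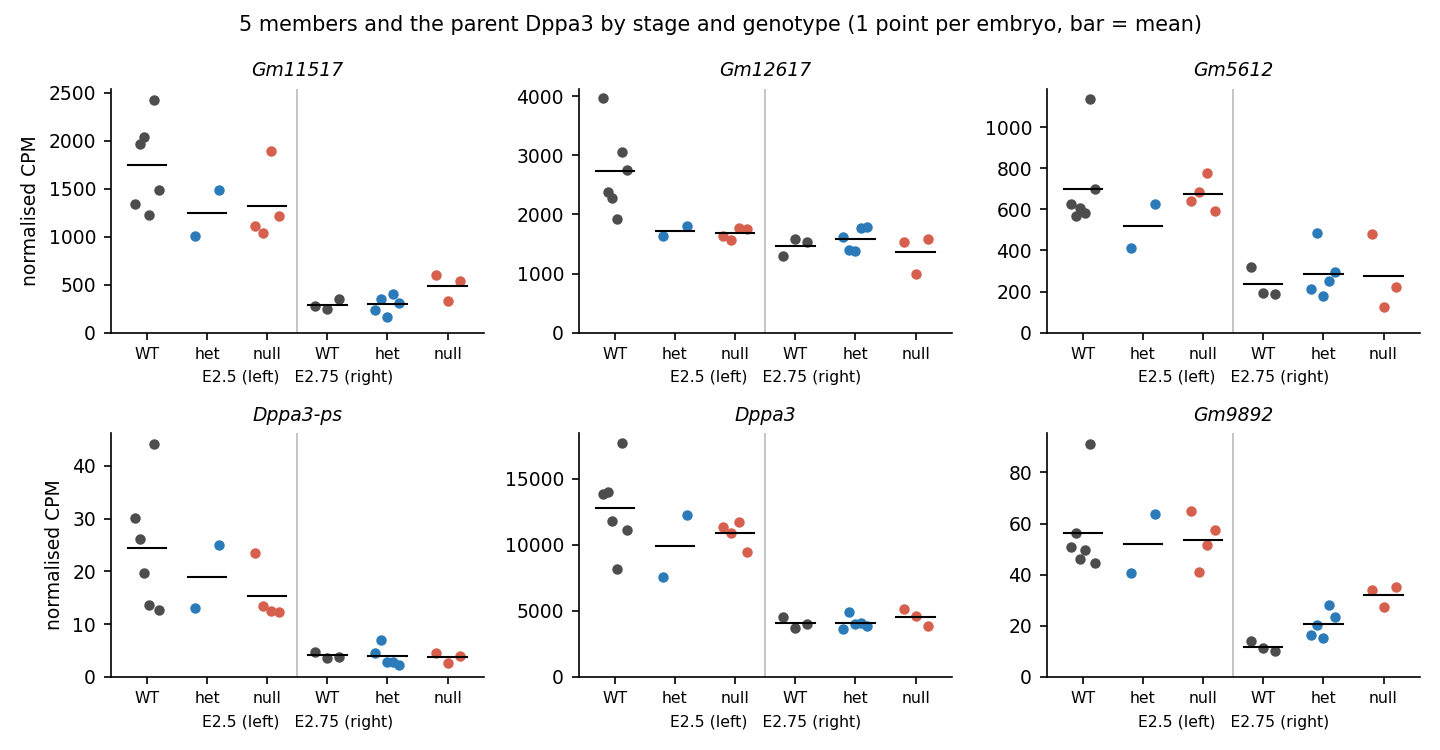
Normalised CPM (y axes, starting at 0) of 5 members and of the parent Dppa3 in every embryo, by genotype and stage, with bars at the group means; Gm11517 and Dppa3-ps are higher in all 12 embryos of E2.5 than in all 11 of E2.75. Gm12617, whose fold change stayed under the threshold, has its highest embryos among the wild-type embryos of E2.5.

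The 3 members that rose in wild-type embryos are all copies of Rplp0, the gene of a stalk protein of the large ribosomal subunit. Gm8730 (chr8:102864845-102865798) was at 3.11 to 9.25 normalised CPM at E2.5 (median 3.39) and at 65.8, 68.2 and 58.1 at E2.75, a log2 fold change of 3.87 (SE 1.05, edgeR adjusted p = 0.0314). Gm9625 (chr13:67810246-67811200) was at 5.45 to 16.04 (median 7.90) and then at 95.6, 81.0 and 76.1, and Gm6278 (chr16:85644252-85645023) at 0.327 to 1.65 (median 0.630) and then at 32.5, 26.8 and 25.5. Their log2 fold changes were 3.21 and 5.05, with edgeR adjusted p-values of 0.0140 and 0.0130. Rplp0 was at 1204 to 2484 (median 1444) and then at 939, 1036 and 1019 (log2 fold change -0.74, edgeR adjusted p = 0.187).

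In het and null embryos the 3 copies also had a higher mean at E2.75, with log2 ratios of the means from 0.19 to 0.83, but the ranges of the stages overlapped in both genotypes. Gm8730 was at 3.81 and 46.4 in het embryos of E2.5 and at 1.36, 73.8, 73.003, 1.42 and 69.4 in het embryos of E2.75. In null embryos it was at 51.3, 1.19, 50.4 and 54.8 at E2.5 and at 0.986, 45.6 and 133 at E2.75. Gm8730, Gm9625 and Gm6278 each fell into 11 low and 12 high embryos, and the 11 low embryos were the same for all 3. They were all 6 wild-type embryos of E2.5, het replicate 1 and null replicate 2 of E2.5, and het replicates 1 and 4 and null replicate 1 of E2.75. The copies lie on chromosomes 8, 13 and 16 but share sequence, since 308 of the 50-base windows of Gm9625 (34.0%) also occur in Gm8730 and 189 windows of Gm8730 also occur in Gm6278. Their counts are therefore not 3 independent measurements, and the part of reads from 1 copy given to another was not tested.

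Such splits between low and high embryos were then counted for all members, a description chosen after these values were seen. For each gene the embryos were ordered by level and the largest ratio of neighbouring levels, with 1 CPM added to each, was taken where at least 2 embryos lay on either side. It was at least 3-fold in 11 of 72 members (15.3%), in 166 of all 7824 genes with a mean of at least 10 CPM (2.12%) and in 0 of 53 parent genes with such a mean. Many of these parents were far above the members in level, so the 0 is not a matched contrast. At a mean of 10 to 50 CPM, where most members lie, the shares were 10 of 62 members and 148 of 4091 genes (3.62%). With 5 CPM added in place of 1, 4 members (5.56%) and 20 genes (0.256%) remained above 3-fold.

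Rpsa-ps10 and Gm15459 had the widest splits. Rpsa-ps10, a copy of the ribosomal protein gene Rpsa with 17.7% unique windows, was at or under 1.07 in 7 embryos and at or above 42.5 in 16. The low ones were wild-type replicates 1 and 2 and het replicate 1 of E2.5, and wild-type replicates 1 and 3, het replicate 5 and null replicate 2 of E2.75. Gm15459 was at or under 3.19 in 9 embryos and at or above 62.7 in 14, with low embryos in each of the 6 groups. Its lowest wild-type embryo of E2.5 was at 0.735 while the other 5 were at 90.03 to 137.

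Gm8420 (chr1:51940664-51941261) and Gm14094 (chr2:133199611-133200220), both copies of Rpl15, had the same 5 low embryos, het replicate 1 and wild-type replicates 1, 3, 4 and 5 of E2.5. Gm8420 was at 0.334 to 1.03 in these and at 13.05 or more in the other 18, and 71.2% and 93.0% of the windows of the pair are unique. They share 12 windows, about 2.19% of those of Gm8420. Rps15a-ps8, with 90.5% unique windows, was at or under 0.928 in 12 embryos, all 4 null embryos of E2.5 among them, and at or above 15.8 in 11. Eif5al3-ps, a copy of Eif5a, had 5 low embryos, at most at 1.31, and 18 at or above 10.7.

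**Figure D4:**
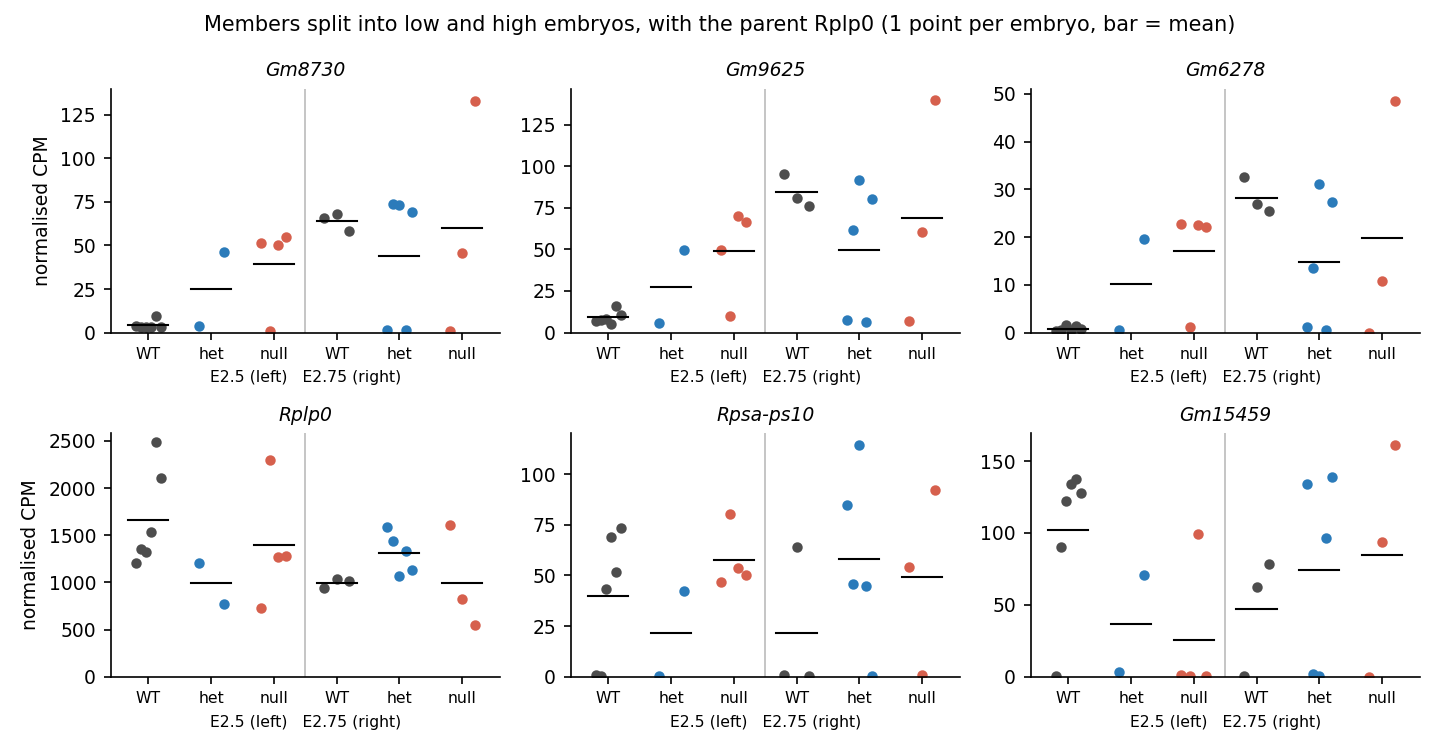
Normalised CPM (y axes, starting at 0) of 5 members and of the parent Rplp0 in every embryo, by genotype and stage, with bars at the group means; Gm8730, Gm9625 and Gm6278 have the same 11 low embryos while Rplp0 has no such gap. Rpsa-ps10 and Gm15459 have low and high embryos at both stages.

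Null embryos were compared with het embryos over both stages, as embryos of the same matings with and without a working copy of the ribonuclease gene. Of 72 members 2 rose, Tcea1-ps1 and Gm15455, and 0 fell, while 3.67% of 13415 genes rose and 2.06% fell. Among the 7458 protein-coding genes with a mean of at least 10 CPM, the members' own threshold, the balance was the other way, with 120 higher and 212 lower. An unadjusted p under 0.05 in edgeR was reached by 7 members (9.72%) and by 17.3% of all genes, and DESeq2 called 4 members higher and 1 lower, beside 3.69% and 1.62% of all genes with a count. The median log2 fold change was 0.40 over the members, 0.35 over 58 parent genes and 0.02 over all genes, and 50 of 72 members were above 0. Within stages the members' medians were 0.19 at E2.5 and 0.17 at E2.75, and 2 of 7 het embryos against 4 of 7 null embryos are of E2.5. With stage as covariate the members' median was 0.15. Between null and wild-type embryos it was -0.03, with 34 of 72 members above 0. Between het and wild-type embryos it was -0.32, with 19 of 72 above 0. Scaled by the spike-in, the median of all genes moved to -1.08 and that of the members to -0.76, and 19 members (26.4%) were called lower and 0 higher, beside 33.4% and 2.15% of all genes.

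Tcea1-ps1 (chr15:90882615-90883518, between genes) is a copy of Tcea1, which encodes a factor that restarts stalled RNA polymerase II. It was at 26.0, 25.8, 21.4 and 15.3 normalised CPM in null embryos of E2.5 and at 23.2, 5.13 and 17.9 in those of E2.75. Het embryos had 2.703 and 18.4 at E2.5 and 0.647, 5.73, 1.58, 1.60 and 3.90 at E2.75. The ranges overlap through het replicate 2 of E2.5 and null replicate 2 of E2.75, and the log2 fold change was 1.96 (SE 0.63, edgeR adjusted p = 0.0822). It was called in 3 of 14 fits that left out an embryo, with adjusted p-values from 0.00777 to 0.152, and in 2 of 6 other settings, with adjusted p-values up to 0.247 in edgeR. Wild-type embryos of E2.5 ranged from 5.35 to 30.3, over the null range, and against wild-type the log2 fold change was 0.38 (edgeR adjusted p = 0.843). Tcea1 had a log2 fold change of 0.49 between null and het (edgeR adjusted p = 0.544), and 25.1% of the windows of the copy are unique.

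Gm15455 (chr1:33836124-33838680, between genes) is a copy of Rbm10, the gene of a splicing regulator, with a frame of 11.02% of the parent's length. Null embryos of E2.5 had 51.6, 59.3, 56.5 and 70.1 and those of E2.75 had 28.1, 41.5 and 12.7. Het embryos had 13.5 and 9.19 at E2.5 and 9.78, 30.1, 0.747, 0.887 and 15.0 at E2.75. The stages differed in overlap, since the null embryos of E2.5 were above all het and wild-type embryos of that stage while those of E2.75 were not, with wild-type values of 91.9, 15.8 and 23.01. The log2 fold change was 2.02 (SE 0.68, edgeR adjusted p = 0.0960) and was called in 2 of 14 fits that left out an embryo, with adjusted p-values from 0.0494 to 0.168, and in 4 of 6 other settings, with adjusted p-values up to 0.464 in edgeR. Rbm10 had a log2 fold change of -0.84 (edgeR adjusted p = 0.365), and 62.4% of the windows of the copy are unique.

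The most abundant members did not pass this test. Gm12617 had a log2 fold change of -0.07 (SE 0.22), Gm11517 of 0.76 (SE 0.52), Gm5612 of 0.52 (SE 0.39) and Rps4l of 0.21 (SE 0.22), with edgeR adjusted p-values from 0.483 to 0.910. With an embryo left out, the log2 fold change ran from 0.50 to 1.21 for Gm11517, from 0.37 to 0.71 for Gm5612 and from 0.09 to 0.28 for Rps4l. Gm12617 was at 1376 to 1796 in the 7 het embryos and at 987 to 1772 in the 7 null embryos. Gm5435 had the most negative estimate among the 10 most abundant, -1.40 (SE 0.54, edgeR adjusted p = 0.158), with null values of 79.2, 54.5, 15.6 and 67.5 at E2.5 and 70.0, 5.13 and 8.998 at E2.75.

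Against wild-type embryos, a comparison that uses the same null embryos, 1 member, Gm10323, rose in null embryos and 0 fell, beside 3.66% and 1.59% of all genes tested. Of 7458 protein-coding genes with a mean of at least 10 CPM, 102 rose and 149 fell. Of the members 10 (13.9%) had an unadjusted p under 0.05 in edgeR, as had 15.1% of all genes, and DESeq2 called 3 higher and 2 lower, beside 3.53% and 1.42% of all genes with a count. Gm10323 (chr13:66849651-66854871) is a copy of the zinc-finger gene 2410141K09Rik, with 10.8% unique windows. It was at 22.4, 39.6, 19.8 and 32.9 in null embryos of E2.5 and at 10.8, 16.9 and 12.6 in those of E2.75, and in wild-type embryos at 1.36 to 26.2 (median 4.62) and at 3.73, 6.02 and 4.16. Wild-type replicate 5 of E2.5 alone reached into the null range, and the log2 fold change was 1.69 (SE 0.56, edgeR adjusted p = 0.0962). It was called in 1 of 16 fits that left out an embryo, with adjusted p-values from 0.00975 to 0.201, and in 4 of 5 other settings. Its mean was 22.2 in null and 6.85 in wild-type embryos, so it met the 10 CPM rule for members through the null embryos. The call therefore leans on how members were chosen. Among 63 members chosen in embryos outside the comparison 0 were called. Without E2.5 wild-type replicate 6 the adjusted p of Gm10323 in edgeR was 0.138, and 1 other member was called, beside 3.42% of all genes higher and 1.48% lower. Between het and wild-type embryos 0 members were called in either direction, as were 0% of all genes, while 5 members (6.94%) and 6.96% of all genes had an unadjusted p under 0.05 in edgeR. DESeq2 called 0 members here, and 0.11% of all genes higher and 0.0833% lower.

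At E2.5 alone, with 2 het embryos, 0 members were called, and of all 15904 genes 0% rose and 0.0126% fell. In edgeR 6 members (8.33%) and 9.26% of all genes had an unadjusted p under 0.05, and DESeq2 called 3 members higher and 1 lower, beside 1.51% and 0.502% of all genes with a count. At E2.75, 1 member rose and 2 fell, beside 2.51% and 2.31% of 14442 genes, and 12 members (16.7%) had an unadjusted p under 0.05 in edgeR, as had 2448 of the 14442 genes. Of 7457 protein-coding genes with a mean of at least 10 CPM, 72 rose and 271 fell at E2.75. The difference between the stages, tested as an interaction, called 0 members and 0% of all genes, with 4 members (5.56%) and 6.61% of all genes at an unadjusted p under 0.05 in edgeR. DESeq2 called 1 member lower here, and 0.173% of all genes with a count.

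Kat2b-ps (chr5:93390602-93393091, between genes) fell at E2.75. It is a copy of Kat2b, which encodes a histone acetyltransferase, with 85.4% unique windows and a frame as long as the parent's. Null embryos had 6.90, 7.18 and 4.29 normalised CPM and het embryos 30.4, 38.0, 53.3, 17.6 and 39.8, without overlap. The log2 fold change was -2.60 (SE 0.48, edgeR adjusted p = 0.0112), and the call held in 8 of 8 fits that left out an embryo and in all 4 other settings run on it, spike-in scaling among them. Wild-type embryos of that stage had 31.7, 41.0 and 53.6. At E2.5 the null embryos had 21.8, 24.5, 41.5 and 9.40 and the het embryos 79.7 and 28.9. Kat2b was lower in level, at 0.987 CPM per kilobase against 13.03 for the copy, and its own log2 fold change of -4.24 at E2.75 had an adjusted p of 0.137 in edgeR.

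Gm46426 (chr13:66281136-66284067), another copy of 2410141K09Rik, was at 0.986, 0 and 0.138 in null embryos of E2.75 and at 7.57, 10.5, 3.57, 34.4 and 10.0 in het embryos. These ranges did not overlap, and the log2 fold change was -5.33 (SE 1.48, edgeR adjusted p = 0.0704), called in 4 of 8 fits that left out an embryo and in 3 of 4 other settings. Wild-type embryos of E2.75 were at 20.8, 0.334 and 14.8, so 1 of them lay inside the null range. At E2.5 the order was the other way, with 20.2, 29.4, 9.16 and 0.470 in null embryos and 0 and 0.186 in het embryos, and wild-type embryos of that stage ran from 0.0970 to 56.0.

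Gm48143 (chr12:72740555-72741582), a remote copy of Rpsa at 77.2% identity with 100% unique windows, rose at E2.75. It was at 19.7, 25.1 and 54.4 in null embryos and at 13.1, 7.23, 6.47, 7.63 and 9.29 in het embryos, a log2 fold change of 1.88 (SE 0.52, edgeR adjusted p = 0.0718). The call held in 2 of 8 fits that left out an embryo and in 1 of 4 other settings, with adjusted p-values up to 0.383 in edgeR. Wild-type replicate 1 of E2.75, at 22.4, lay inside the null range, and the levels in null embryos of E2.5 (27.9, 16.5, 25.9 and 24.9) overlapped those of the het embryos (17.7 and 24.8).

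**Figure D5:**
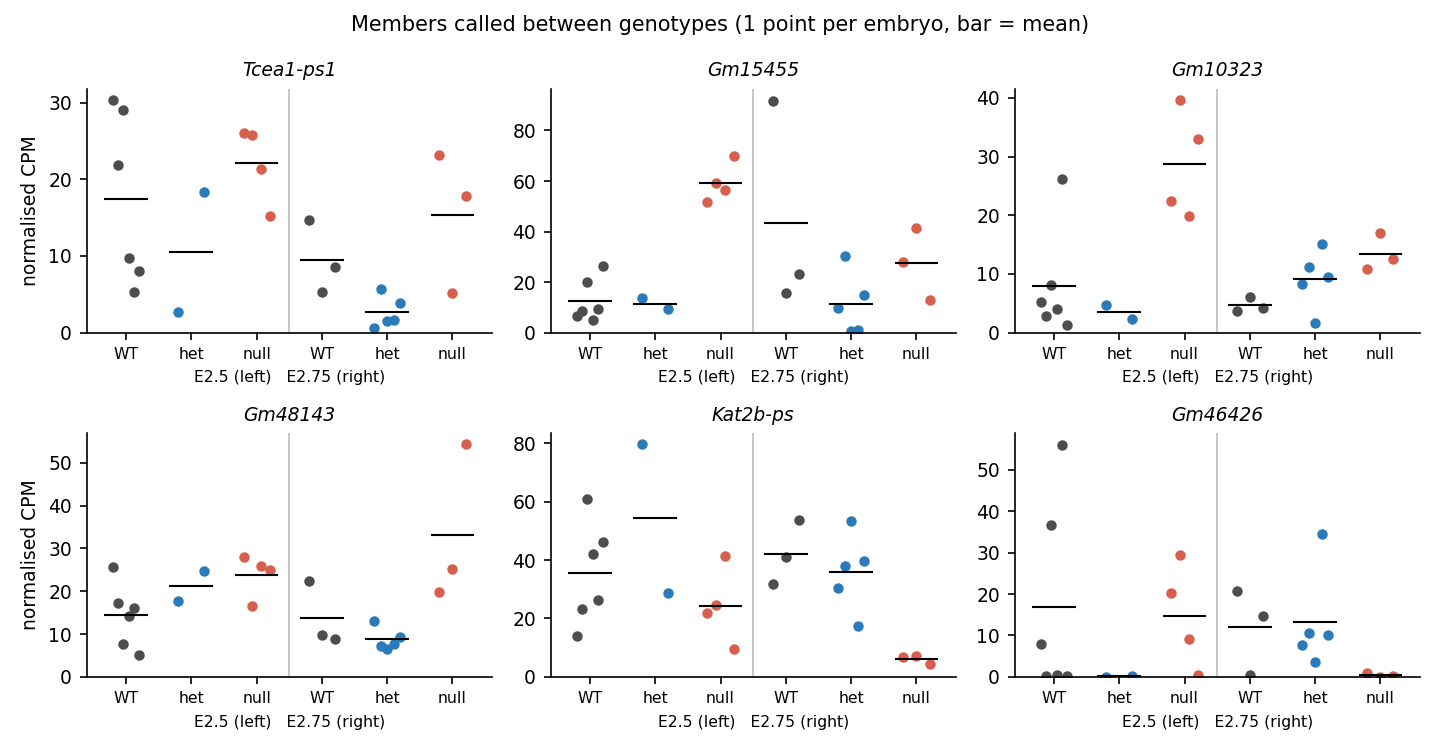
Normalised CPM (y axes, starting at 0) in every embryo, by genotype and stage, of the 6 members called in a comparison of genotypes, with bars at the group means. Kat2b-ps, at 4.29 to 7.18 in null embryos of E2.75, and Gm46426 are lower than in het embryos of that stage, while Gm15455 is higher in null embryos of E2.5 than in the others of E2.5.

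POU6F1 peaks found in both replicates against IgG lay within 1 kb of the start of 2 of 72 members (2.78%), of 55 of 10161 processed pseudogenes below the threshold (0.541%) and of 5600 of 7459 protein-coding genes of at least 10 CPM (75.1%). Over all 55227 genes with a position the share was 20.8%. Peaks found in both replicates numbered 17994 against IgG and 3463 against the mCherry control. Starts with both kinds within 1 kb were counted, whether or not the peaks were the same. Such starts belonged to 0 of 72 members, 0.128% of the processed pseudogenes below the threshold, 28.4% of those protein-coding genes and 6.49% of all genes. One of the 2 member peaks against IgG lies over the start of Rps4l, at chr6:148354539-148354725, with a fold enrichment of 21.3 and 7.26 in the replicates. The nearest annotated start of another gene was 4163 bp away. The reference sequence of that peak on the plus strand of GRCm38 is shown because it spans the annotated start, with the 70 bases inside Rps4l in capitals.
Rps4l peak: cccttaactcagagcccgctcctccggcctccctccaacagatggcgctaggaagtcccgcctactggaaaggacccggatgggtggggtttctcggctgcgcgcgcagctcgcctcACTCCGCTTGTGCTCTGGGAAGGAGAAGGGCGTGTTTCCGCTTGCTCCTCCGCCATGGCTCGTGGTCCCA
The octamer ATGCAAAT and the homeodomain core TAATTA, searched on both strands without overlap between them, were not found in this window, and they occur in 1.74% and 5.29% of 32851 RefSeq promoters of 300 bases, a longer window. The other peak, near 2810025M15Rik at chr1:157411963-157412118, had a fold enrichment of 13.5 and 3.96, and its middle was 311.5 bp from the start of 2810025M15Rik and 554.5 bp from that of Rasal2. Its part in either gene was not tested. Rps4l, with its peak, had a log2 fold change of 0.21 in null against het embryos, and 2810025M15Rik of 0.56 (SE 0.32, edgeR adjusted p = 0.373).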

How the data were processed

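Single-embryo RNA-seq counts of 23 embryos and 4 POU6F1 peak lists of mESCs were used. The deposited raw counts per gene were made by the authors with Cutadapt 3.4, STAR 2.7.8a on GRCm38 and HTSeq 0.11.4 (intersection-strict, no strand). STAR ran at its default settings, and no option for reads that align to several places is named for HTSeq, which by default leaves them uncounted. The HTSeq line for such reads is 0 in all 23 files, and whether they were removed before counting is not given in the sources used here, nor is read length. The peak lists hold the fold enrichment, a ratio over the control that the authors obtained with Bowtie2 2.4.4 and MACS2 2.2.7.1 for each replicate on its own, 48 h after transfection, against IgG or against mCherry cells. The labels name a single anti-IgG library and a single anti-mCherry library of mCherry cells, so both replicates appear to rest on the same controls.

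CPM is the raw count over the summed gene counts of the library, without the 92 ERCC species and the HTSeq summary rows. The members and the gene lists were chosen with earlier results of these data known. Biotypes and exons came from GENCODE vM21. Parents were found with blastn 2.17.0+ (e-value 1e-10, at least 30% of the member aligned). Normalised CPM is CPM after TMM scaling.

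The count test was that of edgeR 4.0.16 under R 4.3.3 (TMM, filterByExpr, quasi-likelihood test, Benjamini-Hochberg adjustment over all genes tested, adjusted p under 0.1 and log2 fold change beyond 1). Genotypes were compared in a fit of all 23 embryos with stages merged, as in the study, in each stage alone, and in a fit of 6 genotype-by-stage groups for the change between stages and the stage difference. All 72 members passed the filter in each of these fits. The scripts were tested on simulated data.

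Alternatives were DESeq2 1.42.0, no filter, ERCC scaling, stage as covariate, replicate number as block, each embryo left out, member thresholds of 5 and 20 CPM, members chosen outside the compared embryos, members with at least 50% unique windows or no exon overlap, and for peaks 500 bp or both controls. Members named are the 10 of highest CPM, those called between null and het, up to 3 called per direction elsewhere, those around the threshold, those with a peak, their parents and Dis3. Others named, such as Rpsa-ps10, Gm8420, Gm14094, Rps15a-ps8, Eif5al3-ps, Gm6494 and Gm12346, were chosen after their values were seen. Comparison columns of the authors were not used. The parent of Gm12617 and Gm11517 is not reported here.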

Additional observations from a re-analysis of the deposited data

Results flagged for a closer look

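Among 72 groups of 4 to 6 embryos checked, 14 had 1 embryo far from the rest. The 72 groups were those of the members named by rule and of Gm6494, and the other members named after their values were seen were not checked. Distance was judged by the gap to the nearest other embryo over the range of the group. The critical value is set so that chance alone gives about 1 in 20. These members were not picked at random and some share reads, and over all 72 members 15.7% of such groups, and over all 7824 genes with a mean of at least 10 CPM 9.07%, had an embryo as far from the rest. Among wild-type embryos of E2.5, replicate 5 was the high one for Gm5612 (1136 normalised CPM, next 699, gap share 0.768), 2210409E12Rik (339, next 153, 0.689), Gm10323 (26.2, next 8.05, 0.731), Gm8730 (9.25, next 3.59, 0.92) and Gm6472 (279, next 88.7, 0.696). Replicate 6, the embryo with Dis3 in the null range, was the high one for Gm5435 (343, next 113, 0.822), and replicate 1 the low one for Gm15459 (0.735, next 90.03, 0.654).

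Among null embryos of E2.5, replicate 2 was low for Gm8730 (1.19, next 50.4, 0.918) and Gm6278 (1.19, next 22.1, 0.969), 2 Rplp0 copies that share sequence. Replicate 3 was high for Gm15459 (99.5, next 1.46, 0.988) and replicate 1 for Dppa3-ps (23.5, next 13.4, 0.893). Among het embryos of E2.75, replicate 2 was high for Rps4l (341, next 298, 0.793) and Gm6494 (144, next 6.09, 0.958), and replicate 4 for Gm46426 (34.4, next 10.5, 0.774). Gm6494 passed the CPM threshold through that embryo, which held 63.5% of its summed CPM, so its flag restates how it entered the list.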

How the results depend on the processing

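Counts of called members are given as higher and lower, each followed by the shares of all genes called in the same fit. The 72 members became 140 at a threshold of 5 CPM, 37 at 20 CPM and 38 with at least 50% unique windows, and these choices leave the shares of all genes as they were. Between null and het embryos (2 and 0, beside 3.67% and 2.06%) the counts were 12 and 1 at 5 CPM, 1 and 0 at 20 CPM, 1 and 0 for unique windows and 3 and 0 among 73 members chosen outside the comparison. They were 1 and 2 with no filter (3.77% and 1.61%), 0 and 19 with ERCC scaling (2.15% and 33.4%), 0 and 0 with the replicate block (1.61% and 0.865%), 1 and 0 with only null and het embryos fitted (71 members tested, 4.38% and 2.52%), 2 and 1 with stage as covariate (3.62% and 2.12%), 4 and 1 with DESeq2 (3.69% and 1.62%), and from 0 to 2 and 0 to 1 with an embryo left out (2.51% to 4.04% and 1.299% to 2.66%).

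Between null and wild-type embryos (1 and 0, beside 3.66% and 1.59%) they were 7 and 1 at 5 CPM, and 0 and 0 at 20 CPM, for 63 members chosen outside the comparison and for unique windows. They were 1 and 2 with no filter (7.95% and 2.19%), 0 and 3 with ERCC scaling (2.36% and 3.50%), 3 and 0 with the replicate block (386 and 174 of 13415 genes), 2 and 1 with stage as covariate (563 and 296 of them), 3 and 2 with DESeq2 (3.53% and 1.42%), and from 0 to 1 in both directions with an embryo left out (2.88% to 4.03% and 1.297% to 2.06%). Between het and wild-type embryos 0 were called in each of these fits (at most 0.11% and 0.0833%, with DESeq2).

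At E2.5 (0 and 0, beside 0% and 0.0126%) there were 3 and 1 with DESeq2 (1.51% and 0.502%), 0 and 1 with no filter (0.0472% and 0.0640%), 0 and 7 with ERCC scaling (39 and 1916 of 15904 genes) and 0 with an embryo left out (0% and at most 0.0127%). In 2 of those 6 fits a single het embryo was left, which is assumed to vary like the null and wild-type embryos fitted with it. These counts therefore do not bear on stability. At E2.75 (1 and 2, beside 2.51% and 2.31%) there were 3 and 3 at 5 CPM, 0 and 1 at 20 CPM, 1 and 1 for unique windows and 1 and 3 among 81 members chosen outside the comparison. There were 1 and 6 with no filter (2.26% and 2.21%), 0 and 12 with ERCC scaling (330 and 2164 of 14442 genes), 0 and 1 with the replicate block (0.284% and 0.360%), 3 and 4 with DESeq2 (3.24% and 2.44%), and 0 to 2 and 1 to 4 with an embryo left out (0.991% to 2.72% and 0.888% to 2.33%). For the stage difference (0 and 0, beside 0% of all genes) there were 1 and 1 with no filter (0.131% and 0.0982%) and 0 and 1 with DESeq2 (0.0684% and 0.173%). With an embryo other than an E2.5 het left out there were 0 (at most 0.00542% and 0.00543%). Fits that left a single het embryo of E2.5 are not counted here. Since the main fit called 0% of all genes, these 0 counts do not bear on stability.

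From E2.5 to E2.75 in wild-type embryos (3 and 13, beside 3.74% and 3.64%) there were 3 and 18 at 5 CPM, 2 and 11 at 20 CPM, 1 and 4 for unique windows and 3 and 12 among 68 members chosen outside the comparison. There were 4 and 9 with no filter (4.59% and 1.67%), 6 and 3 with ERCC scaling (17.2% and 0.316%), 3 and 9 with the replicate block (2.15% and 2.74%), 3 and 18 with DESeq2 (2.83% and 2.97%), and 3 and 6 to 13 with an embryo left out (1.85% to 4.14% and 2.18% to 4.12%). DESeq2 shared each of the main calls in every comparison.

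Of the most abundant members, ERCC scaling turned the null against het log2 fold change to -0.39 for Gm11517, -0.75 for Gm5612, -0.93 for Rps4l, -0.84 for Gm3333 and -0.78 for 2810025M15Rik. Gm12617 ran from -0.13 to 0.0094 with an embryo left out, the last without E2.75 null replicate 2, and 2810025M15Rik from 0.33 to 0.69. The causes were not tested.

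The members' summed level at E2.75 over that at E2.5 in wild-type embryos, 0.615, was 0.851 without the 5 most abundant members and 0.804 per ERCC count. The null over het ratio of 1.10 with stages merged, where 4 of 7 null and 2 of 7 het embryos are of E2.5, was 0.510 per ERCC count. Within stages, an alternative added after seeing the data, it was 1.05 at E2.5 and 0.987 at E2.75. With both controls required, 0 member starts had a peak. With 5 CPM added, a choice made after seeing the data, 4 and 2 members had gaps of 3-fold and 5-fold, against 11 and 6.

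The correlation of deviations from the group means ran from -0.11 to 0.086 in 17 same-numbered pairs and from -0.15 to 0.15 in 66 other pairs. Taken over all genes and in small groups, these values cannot show whether some embryos shared a litter or batch. Of the values for single members, 200 kept direction and side of the threshold, 5 passed it newly, 29 no longer passed and 6 changed sign, those given above. Low counts and shared sequence limit the members, whose total counts began at 1302.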
